A study of Mus musculus with 8 samples.

Results

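The Tsc22d genes encode a small family of leucine zipper proteins. The family was taken as every probe set of the deposited array table whose 1 annotated gene symbol is Tsc22d1, Tsc22d2, Tsc22d3 or Tsc22d4, which gave 4 of the 18193 genes with such a probe set and 15 of the 45037 probe sets tested: 7 for Tsc22d1, 2 for Tsc22d2, 4 for Tsc22d3 and 2 for Tsc22d4. No threshold on signal was applied, so all 15 are described. Of these, 11 had a mean signal above that of the median probe set and 4 lay below it.

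The arrays measured RNA from the 7438 line, a mouse mammary cell line that carries the glucocorticoid receptor fused to green fluorescent protein (GFP-GR) and the estrogen receptor fused to cherry fluorescent protein (Cherry-ER). Both fusions are under a tetracycline-regulated promoter, and in all 4 groups they had been switched on by 24 hours without tetracycline, in serum stripped with charcoal-dextran. The groups were cells given 100 nM dexamethasone (Dex, a synthetic glucocorticoid) together with 100 nM estradiol (E2), cells given 100 nM Dex, cells given 100 nM E2, each for 2 hours, and untreated cells. Each group has 2 arrays, and the question is how one hormone alters the response to the other. Nothing in the labels states that replicates 1 and 2 of a group were grown apart. The p-values therefore speak of the scatter between these arrays, and that scatter may be technical.

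The proteins of this family share a conserved stretch called the TSC box, next to a leucine zipper through which they pair with each other. Tsc22d3 encodes the glucocorticoid-induced leucine zipper (GILZ), a textbook target of the glucocorticoid receptor that binds NF-kappaB and AP-1 subunits and blunts inflammatory transcription. In human cell lines estrogen has been reported to raise or lower GILZ depending on the cell. Tsc22d1 was first found as a transcript stimulated by transforming growth factor beta (TGF-beta). In human cells, Tsc22d1, Tsc22d2 and Tsc22d4 have been linked to the pseudokinase NRBP1 and the WNK kinases, which sense cell volume and chloride.

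Values are log2 signals from robust multi-array averaging (RMA), a scale on which 1 unit is a 2-fold difference, and levels of different probe sets cannot be compared with each other. Median signals of the 8 arrays ran from 5.58 to 5.66. Replicate arrays correlated at 0.998 for Dex, E2 and untreated cells and at 0.996 for Dex + E2. In Dex + E2, 1249 probe sets were over 0.5 log2 units apart on the replicates, while the range elsewhere was 92 to 305. Replicate 2 of Dex + E2 correlated least with the rest of the series, at 0.9951 on average. Several Tsc22d3 and Tsc22d2 results that use it are given with and without it. Those of the gene lists and nearest profiles are given only with it. For 2 arrays, replicate 2 of E2 and replicate 1 of Dex + E2, the description field mentions ChIP. Titles and treatments were followed for both. As a check of the labelled cell type, all 7 mesenchymal markers measured lay above the median probe set, Vim at percentile 99.8 of mean level. Of 8 epithelial markers 5 did so, led by Krt14 at percentile 77.2, while Cdh1, which encodes E-cadherin, lay at percentile 4.11. Of 7 immune markers 4 lay above the median, from Ptprc at percentile 15.1 to Cd14 at 72.4, and of 4 endothelial markers 1 did, from Pecam1 at 15.6 to Kdr at 61.5. Both adipocyte markers measured lay below it. Of all these markers 1 passed the test described next against untreated cells, Twist1 (adjusted p = 0.0426 in limma).

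Differences were tested with limma on all 45037 probe sets, and called where the Benjamini-Hochberg adjusted p over all of them was under 0.05. Dex alone called 4 of the 15 probe sets, 2 higher and 2 lower, and 11 did not pass. Over all probe sets 0.924% were called, 0.575% higher and 0.349% lower. The 2 higher probe sets both belong to Tsc22d3 and the 2 lower ones both to Tsc22d2, so members of 1 family moved in opposite directions in the same cells.

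**Figure D1:**
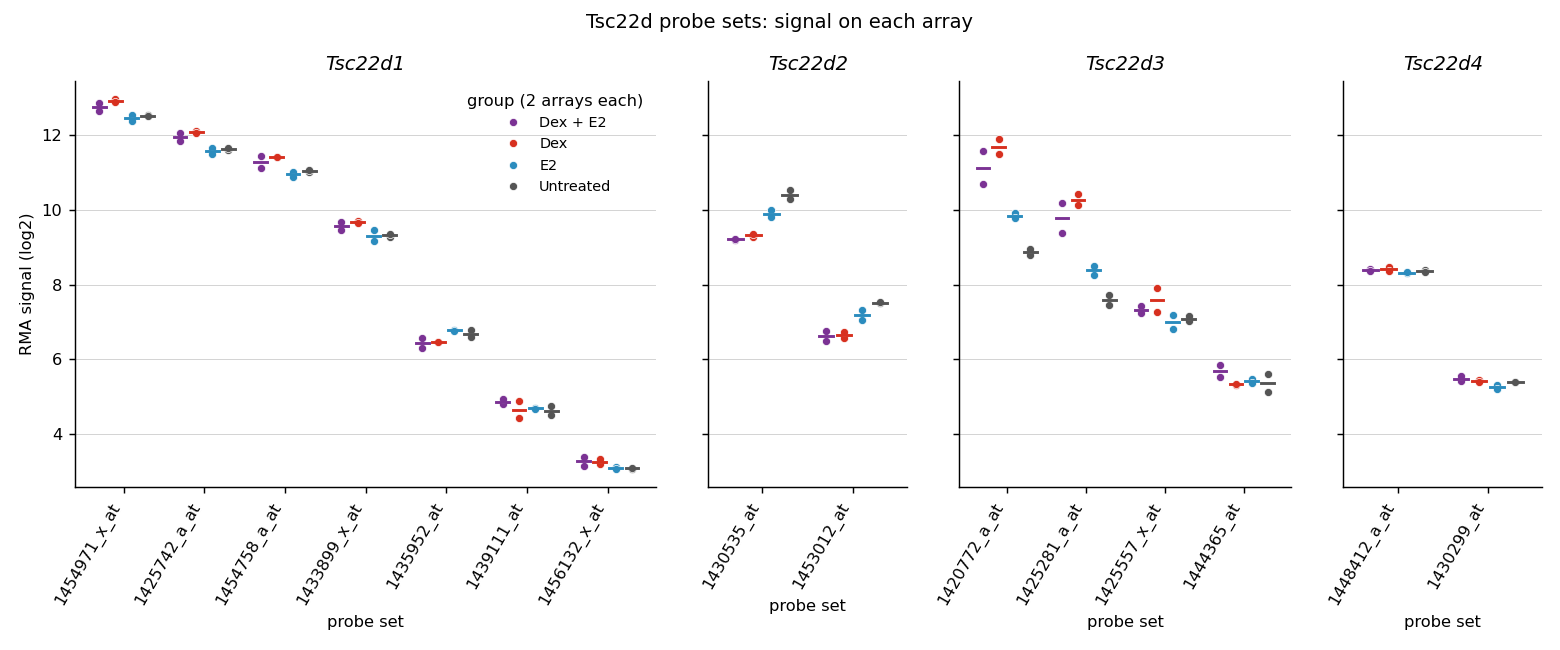
RMA signal (log2, y axis) of each of the 15 Tsc22d probe sets (x axis, one panel per gene) on every array. Points are single arrays, bars are the mean of the 2 arrays of a group, and colours are the groups. The Dex + E2 and Dex arrays lie above the untreated ones for 1420772_a_at and 1425281_a_at of Tsc22d3 and below them for both Tsc22d2 probe sets.

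Tsc22d3, the GILZ gene, rose the most in the family. Its brightest probe set, 1420772_a_at, read 11.90 and 11.48 on the Dex arrays, against 8.79 and 8.95 on the untreated arrays. Every Dex array was thus above every untreated array, and the difference was 2.82 ± 0.23 log2 units (SE, n = 2 per group), a 7.06-fold rise (limma, adjusted p = 0.000211). It was the 7th largest rise among all probe sets. A second probe set, 1425281_a_at, gave 10.41 and 10.12 with Dex, against 7.45 and 7.73 without it. That is a rise of 2.67 ± 0.22, or 6.38-fold (limma, adjusted p = 0.000211), and the 9th largest. These 2 calls held under every other setting in which the probe set was fitted, with differences from 2.53 to 2.82 for 1425281_a_at and from 2.61 to 3.03 for 1420772_a_at without each array in turn.

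The other 2 probe sets annotated to Tsc22d3 did not pass. Probe set 1425557_x_at read 7.26 and 7.90 with Dex, against 7.02 and 7.17 in untreated cells. Its arrays did not overlap, but the difference of 0.49 was not called (limma, adjusted p = 0.709), and its 95% interval, 0.07 to 0.91, ends well below those of the brighter probe sets, which start at 2.30 and 2.18. The suffix _x_at marks a design whose probes can also match other transcripts. Probe set 1444365_at, dimmer than the median probe set, read 5.32 and 5.34 with Dex, against 5.60 and 5.12 in untreated cells, and its groups overlapped. Averaging all 4 probe sets brought the gene's rise to 1.49, which still passed (limma on 1 value per gene, adjusted p = 8.46e-05).

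The RefSeq table of start sites (mouse build GRCm38.p6) holds 3 windows for Tsc22d3, each from 250 bases before to 50 after a start, and 5 for Tsc22d1. All 3 Tsc22d3 windows are shown because this gene rose most with Dex, and of the Tsc22d1 windows only the one with a match to the glucocorticoid arm is shown. Both strands were searched for the full glucocorticoid element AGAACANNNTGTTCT, its 6-base arm AGAACA, the full estrogen element GGTCANNNTGACC, its 5-base arm GGTCA and the FOXO site GTAAACA. An arm also counts inside its full element. Capitals mark matches. The sequences below run 5′ to 3′ on the gene's strand.
Tsc22d3 outer start, chrX:140600473-140600772, minus strand: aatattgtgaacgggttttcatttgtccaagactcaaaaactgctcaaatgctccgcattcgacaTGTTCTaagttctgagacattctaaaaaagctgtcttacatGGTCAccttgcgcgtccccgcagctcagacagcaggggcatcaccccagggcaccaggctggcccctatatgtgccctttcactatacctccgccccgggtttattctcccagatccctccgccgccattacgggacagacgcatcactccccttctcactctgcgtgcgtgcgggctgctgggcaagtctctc
Tsc22d3 middle start, chrX:140548522-140548821, minus strand: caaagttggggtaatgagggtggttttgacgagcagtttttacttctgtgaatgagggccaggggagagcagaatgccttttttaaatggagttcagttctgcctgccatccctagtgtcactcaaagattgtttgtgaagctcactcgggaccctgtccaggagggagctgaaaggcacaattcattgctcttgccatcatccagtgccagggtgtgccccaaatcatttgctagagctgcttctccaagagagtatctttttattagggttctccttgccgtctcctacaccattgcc
Tsc22d3 inner start, chrX:140542619-140542918, minus strand: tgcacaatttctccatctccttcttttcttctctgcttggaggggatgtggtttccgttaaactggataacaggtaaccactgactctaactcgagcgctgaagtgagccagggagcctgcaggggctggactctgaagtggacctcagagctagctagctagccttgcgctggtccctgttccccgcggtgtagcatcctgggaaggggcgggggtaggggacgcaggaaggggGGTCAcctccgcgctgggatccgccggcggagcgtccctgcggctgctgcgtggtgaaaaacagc
Tsc22d1 start with an AGAACA match, chr14:76503976-76504275, plus strand: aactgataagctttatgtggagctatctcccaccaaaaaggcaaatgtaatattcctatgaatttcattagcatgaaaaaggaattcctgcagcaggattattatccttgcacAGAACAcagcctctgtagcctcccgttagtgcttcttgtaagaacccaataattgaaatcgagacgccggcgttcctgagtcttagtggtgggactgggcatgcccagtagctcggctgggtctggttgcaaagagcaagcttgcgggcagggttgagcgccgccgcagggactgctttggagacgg

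The outer Tsc22d3 window holds 1 AGAACA arm on the strand opposite the gene, printed as TGTTCT, 185 bases before the start, and 1 GGTCA arm 144 bases before it. The middle window holds 0 matches and the inner one 1 GGTCA arm, 15 bases before the start. Of the 5 Tsc22d1 windows, 1 holds an AGAACA arm, 137 bases before the start, and 2 others hold GGTCA arms, 1 in one and 2 in the other. None of the 8 windows holds a full element or the FOXO site. Among 32851 windows of the same length, 19.0% hold AGAACA, 40.5% GGTCA, 3.65% the FOXO site, 0.00913% the full glucocorticoid element and 0.0700% the full estrogen element. The arms are therefore common letters at this length, and nothing outside the 300 bases was searched.

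Tsc22d2 fell with Dex on both of its probe sets. Probe set 1430535_at read 9.27 and 9.36 on the Dex arrays, against 10.52 and 10.28 on the untreated arrays. The groups were well apart, and the difference was -1.09 ± 0.11 log2 units, 2.12-fold lower (limma, adjusted p = 0.000514). It held under every other setting tried, from -1.20 to -0.97. The dimmer 1453012_at read 6.56 and 6.74 with Dex, against 7.51 and 7.53 without. It was lower by 1.82-fold, a difference of -0.87 ± 0.12 (limma, adjusted p = 0.00664), but lost the call without untreated replicate 1 (adjusted p = 0.0884), untreated replicate 2 (0.0977) or Dex replicate 1 (0.127).

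The 4 brightest probe sets of Tsc22d1 all lay higher with Dex by a small amount that did not pass the threshold. Probe set 1425742_a_at read 12.09 and 12.04 with Dex, against 11.60 and 11.66 in untreated cells, a difference of 0.44 ± 0.10 (limma, adjusted p = 0.113). The differences were 0.40 for 1454971_x_at, 0.39 for 1454758_a_at and 0.35 for 1433899_x_at, with adjusted p of 0.190, 0.304 and 0.438 in limma. In each of these 4 the Dex arrays lay above the untreated arrays, as they did for 17.2% of all probe sets. With a trended and robust prior 1425742_a_at and 1454971_x_at passed (adjusted p = 0.0149 and 0.0217), and 1425742_a_at did so when the Dex and untreated arrays were fitted alone (0.0459). Probe sets 1454758_a_at and 1433899_x_at are annotated with the same source sequence, so they are not separate evidence.

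Pooling both states of E2 gave 4 Dex-treated arrays against 4 without Dex, and called 5 of the 15 probe sets, 3 higher and 2 lower, where 1.37% of all probe sets were called, 0.679% higher and 0.693% lower. Tsc22d1 probe set 1425742_a_at joined the 4 already named, higher by 0.40 ± 0.07 (limma, adjusted p = 0.0196). That call was lost without untreated replicate 1 or 2, Dex replicate 1 or 2, or E2 replicate 2, with adjusted p up to 0.130. The next Tsc22d1 probe sets were just outside the threshold, 1454971_x_at at 0.34 (adjusted p = 0.0533) and 1454758_a_at at 0.36 (0.0610). With a trended and robust prior both passed, at adjusted p of 0.00398 and 0.0115.

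One Tsc22d1 probe set went the other way. Probe set 1435952_at read 6.47 and 6.48 with Dex, against 6.78 and 6.59 in untreated cells, and 6.56 and 6.31 with Dex + E2, against 6.80 and 6.76 with E2. Its mean Dex effect was -0.28 ± 0.08 (limma, adjusted p = 0.161), and from -0.34 to -0.21 without each array in turn. Which Tsc22d1 transcripts each probe set reads was not tested. The 2 dimmest probe sets, 1439111_at and 1456132_x_at, differed by 0.03 and 0.17 with Dex without passing.

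Tsc22d4, which binds the kinase Akt1, gave no call in any comparison. Its brighter probe set 1448412_a_at read 8.47 and 8.37 with Dex, against 8.38 and 8.33 in untreated cells, and ranged over only 0.18 log2 units across the 8 arrays. The difference of 0.07 had a 95% interval of -0.12 to 0.26, so a change in level of the size seen in Tsc22d2 or Tsc22d3 lies outside it. The dimmer 1430299_at differed by 0.01, with an interval of -0.18 to 0.20.

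**Figure D2:**
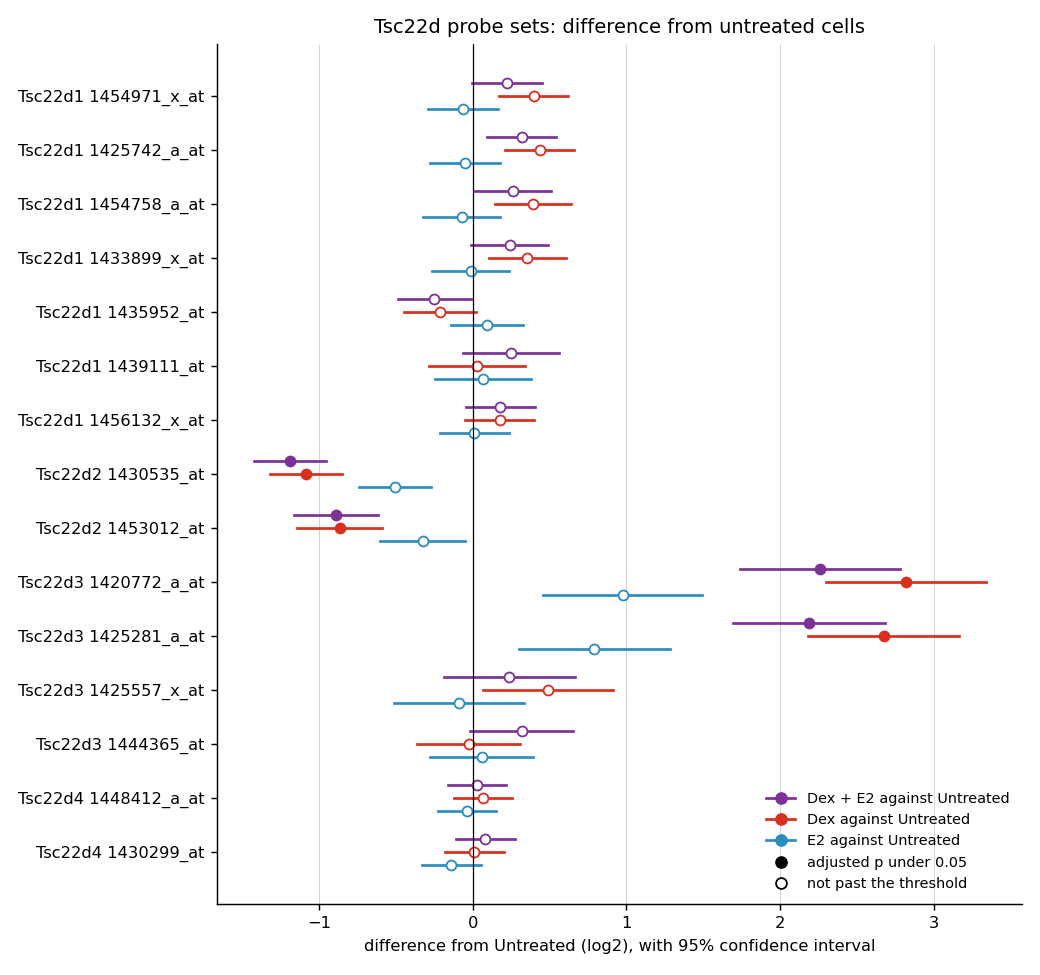
Difference from untreated cells (log2, x axis) for the 15 Tsc22d probe sets (y axis), with 95% confidence intervals from limma, for Dex + E2, Dex and E2. Filled points passed an adjusted p of 0.05. The filled points are 2 Tsc22d3 probe sets above 0 and 2 Tsc22d2 probe sets below 0, for Dex + E2 and for Dex, and no E2 point is filled.

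With E2 alone none of the 15 probe sets passed (limma, 0 called and 4 at an unadjusted p under 0.05). Over all probe sets 0.0355% were called and 5.42% had an unadjusted p under 0.05. Dex and E2 were set against the same untreated arrays, so their values stand side by side without a test of likeness. Tsc22d3 probe set 1420772_a_at read 9.91 and 9.78 with E2, against 8.79 and 8.95 in untreated cells. The arrays did not overlap and the difference was 0.97 ± 0.23, with a 95% interval of 0.46 to 1.49 (limma, adjusted p = 0.494). It passed when either Dex + E2 array was left out, and when E2 and untreated arrays were fitted alone (limma, adjusted p = 0.0329). In the other 13 settings it stayed outside the threshold. The Dex + E2 arrays enter only the pooled variance of this difference, which stayed at 0.97 without either of them. Probe set 1425281_a_at read 8.27 and 8.50 with E2, against 7.45 and 7.73, a difference of 0.79 ± 0.22 (limma, adjusted p = 0.653).

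Tsc22d2 probe set 1430535_at read 9.98 and 9.80 with E2, against 10.52 and 10.28 in untreated cells. All E2 arrays were below the untreated ones, by 0.51 ± 0.11 log2 units on average, which did not pass (limma, adjusted p = 0.358). For 1453012_at the E2 arrays read 7.06 and 7.33, against 7.51 and 7.53, a difference of -0.33 (limma, adjusted p = 0.880). The 7 Tsc22d1 probe sets lay between -0.07 and 0.09 of untreated and all overlapped with it, where 34.9% of all probe sets did not overlap. Tsc22d4 probe set 1430299_at read 5.32 and 5.22 with E2, against 5.41 and 5.41, a difference of -0.14 (limma, adjusted p = 0.947).

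A direct comparison of E2 with Dex, whose difference takes no value from the untreated arrays although its pooled variance does, called 3 of the 15 probe sets, where 0.675% of all probe sets were called. Tsc22d3 was 3.59-fold lower with E2 than with Dex on 1420772_a_at (-1.84 ± 0.23 log2 units; limma, adjusted p = 0.00561) and 3.68-fold lower on 1425281_a_at (-1.88 ± 0.22; 0.00356). Tsc22d2 was higher with E2 than with Dex by 0.58 ± 0.11 on 1430535_at (limma, adjusted p = 0.0401). The count was 0 without Dex replicate 1, 1 without E2 replicate 2, and 5 with either Dex + E2 array left out. The 1430535_at call was lost without either untreated (adjusted p = 0.0535), Dex or E2 array, with adjusted p up to 0.480.

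With both hormones the same 4 probe sets were called as with Dex alone, where 0.844% of all probe sets were called, 0.471% higher and 0.373% lower. Tsc22d3 probe set 1420772_a_at read 11.57 and 10.69 with Dex + E2, against 8.79 and 8.95 in untreated cells, a rise of 2.26 ± 0.23 or 4.79-fold (limma, adjusted p = 0.000918). Replicate 2 was lower than replicate 1 by 0.88, the widest gap between replicates among the 15 probe sets in any group. The rise was 2.70 without replicate 2 and 1.82 without replicate 1, and passed in both cases. Probe set 1425281_a_at read 10.19 and 9.37, against 7.45 and 7.73, a rise of 2.19 ± 0.22 (limma, adjusted p = 0.000813), again with replicate 2 the lower. Its rise was 2.59 without replicate 2 and 1.78 without replicate 1.

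The gap between replicates 1 and 2 was smaller for Tsc22d2, 0.28 on 1453012_at, again with replicate 2 the lower, and -0.04 on 1430535_at. Probe set 1430535_at read 9.19 and 9.23 with Dex + E2, against 10.52 and 10.28 in untreated cells, 2.28-fold lower by -1.19 ± 0.11 (limma, adjusted p = 0.000396). Probe set 1453012_at read 6.77 and 6.49, against 7.51 and 7.53, a difference of -0.89 ± 0.12 (limma, adjusted p = 0.00635), lost without untreated replicate 1 (0.0842) or 2 (0.0946). Tsc22d1 and Tsc22d4 had no call. The 4 brightest Tsc22d1 probe sets were 0.22 to 0.32 above untreated.

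Adding E2 to Dex called none of the 15 probe sets (limma, 2 at an unadjusted p under 0.05), where 0.00666% of all probe sets were called and 4.66% had an unadjusted p under 0.05. Tsc22d3 probe set 1420772_a_at stood at 11.57 and 10.69 with Dex + E2, against 11.90 and 11.48 with Dex. The groups overlapped, and the difference of -0.56 had a 95% interval of -1.08 to -0.04 (limma, adjusted p = 0.996). It rests on Dex + E2 replicate 2: without that array the difference was -0.12. Without replicate 1, when replicate 2 alone stood for the group, it was -1.0. For Tsc22d2 probe set 1430535_at the difference was -0.10, with an interval of -0.34 to 0.13.

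Adding Dex to E2 called 2 of the 15 probe sets, where 0.335% of all probe sets were called. Tsc22d3 probe set 1425281_a_at read 10.19 and 9.37 with Dex + E2, against 8.27 and 8.50 with E2, a rise of 1.40 ± 0.22 (limma, adjusted p = 0.0322). The brighter 1420772_a_at was 1.28 higher and missed the threshold (adjusted p = 0.0619). Tsc22d2 probe set 1430535_at fell to 9.19 and 9.23 with Dex + E2, against 9.98 and 9.80 with E2, a difference of -0.68 ± 0.11 (limma, adjusted p = 0.0304). Without Dex + E2 replicate 2, 1420772_a_at was 1.72 higher, and without replicate 1 it was 0.84 higher. The values of 1425281_a_at were 1.80 and 0.99. The 1430535_at difference was -0.70 without replicate 2, where its call was lost. Each of these fits left 1 array in the Dex + E2 group. None of the 15 was called without Dex replicate 1, Dex replicate 2, E2 replicate 1 or E2 replicate 2, or when the Dex + E2 and E2 arrays were fitted alone, 1 was called without either untreated array, and 5 were called without Dex + E2 replicate 1.

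**Figure D3:**
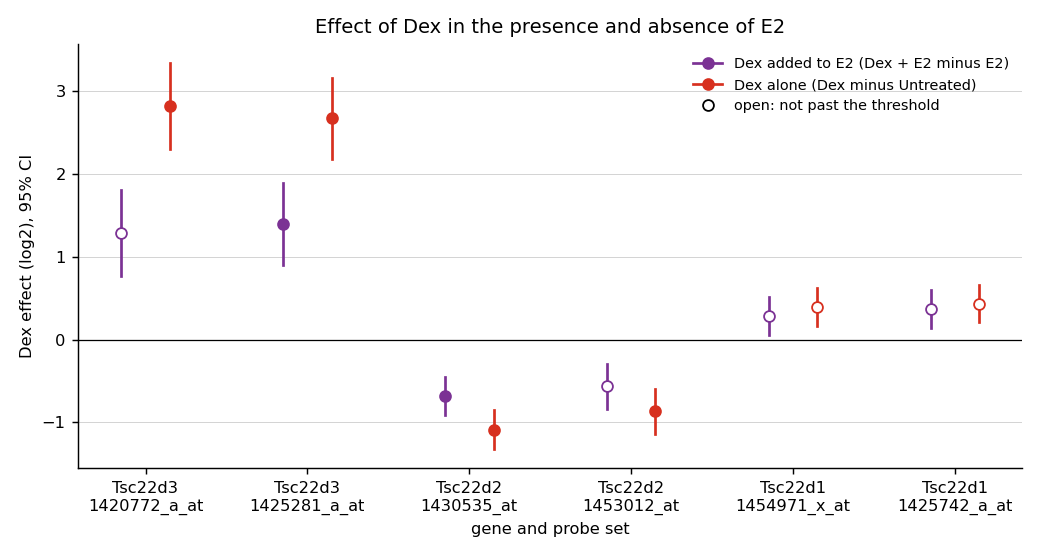
Effect of Dex (log2, y axis, with 95% confidence intervals from limma) on 6 Tsc22d probe sets (x axis), given in the presence of E2 (Dex + E2 minus E2) and in its absence (Dex minus untreated). For each gene other than Tsc22d4, the 2 probe sets with the smallest p for the mean Dex effect were picked. Filled points passed an adjusted p of 0.05. For 1420772_a_at the effect was 1.28 with E2 and 2.82 without it. The 2 intervals, not adjusted for the number of probe sets, do not meet, but the interaction was not called (limma, adjusted p = 0.669).

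The Dex by E2 interaction asks whether the Dex effect in the presence of E2 differs from that in its absence. It called none of the 15 probe sets (limma, 3 at an unadjusted p under 0.05), where 0.00222% of all probe sets were called and 5.46% had an unadjusted p under 0.05. Tsc22d3 probe set 1420772_a_at had a Dex effect of 1.28 with E2 and 2.82 without it, a difference of -1.54 ± 0.33 (limma, adjusted p = 0.669), and 1425281_a_at one of -1.28 ± 0.31 (0.819). Leaving out Dex + E2 replicate 1 moved these to -1.98 and -1.68, with replicate 2 alone standing for the group. Leaving out replicate 2 moved them to -1.09 and -0.87, with replicate 1 alone. Their size thus differed with the Dex + E2 array kept. Tsc22d2 probe set 1430535_at had an interaction of 0.40 (limma, adjusted p = 0.881), since the Dex effect was -0.68 with E2 and -1.09 without it.

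Averaged over both states of Dex, E2 called none of the 15 (limma, 1 at an unadjusted p under 0.05), where 0.0533% of all probe sets were called and 4.23% had an unadjusted p under 0.05.

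The order of group means on 1420772_a_at of Tsc22d3 was therefore Dex at 11.69 ± 0.29 (SD, n = 2), Dex + E2 at 11.13 ± 0.62, E2 at 9.85 ± 0.09 and untreated at 8.87 ± 0.12. Of the neighbours in this order none passed the threshold, while Dex against E2, Dex against untreated and Dex + E2 against untreated did. On 1430535_at of Tsc22d2 the order from the lowest mean up was Dex + E2 at 9.21 ± 0.03, Dex at 9.31 ± 0.06, E2 at 9.89 ± 0.13 and untreated at 10.40 ± 0.17. There the step between E2 and Dex passed, and the steps between Dex + E2 and Dex and between E2 and untreated did not.

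Genes whose profiles lay nearest to these were sought among 16328 genes, each centred on its mean over the 8 arrays, by the root mean square difference of log2 values. For Tsc22d3, whose own profile had a root mean square of 1.13 about its mean, the nearest was Ccn2, a matricellular growth factor, at 0.197. Fabp4, a fatty acid carrier, followed at 0.235, Suox, sulfite oxidase, at 0.238, F3, tissue factor, at 0.275, Pdk4, a kinase that restrains pyruvate oxidation, at 0.318, and Sphk1, sphingosine kinase, at 0.328. Ccn2 read 11.66 and 10.64 with Dex + E2 and 9.66 and 9.38 with E2. All these neighbours were lower on Dex + E2 replicate 2, an array that entered their selection. The gap was least for Sphk1, at 10.92 and 10.74.

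For Tsc22d2, with a root mean square of 0.485 about its mean, the nearest was Irs1, the insulin receptor substrate, at 0.115. Ccn4, a relative of Ccn2, stood at 0.119, Socs5, a suppressor of cytokine signalling, at 0.119, Gas1, a growth arrest gene, at 0.131, Ier3, an immediate early gene, at 0.133, and Csf1, a macrophage growth factor, at 0.142. Irs1 read 9.66 and 9.72 with Dex, against 11.01 and 10.89 in untreated cells. These are descriptions over 8 arrays that share the treatments.

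**Figure D4:**
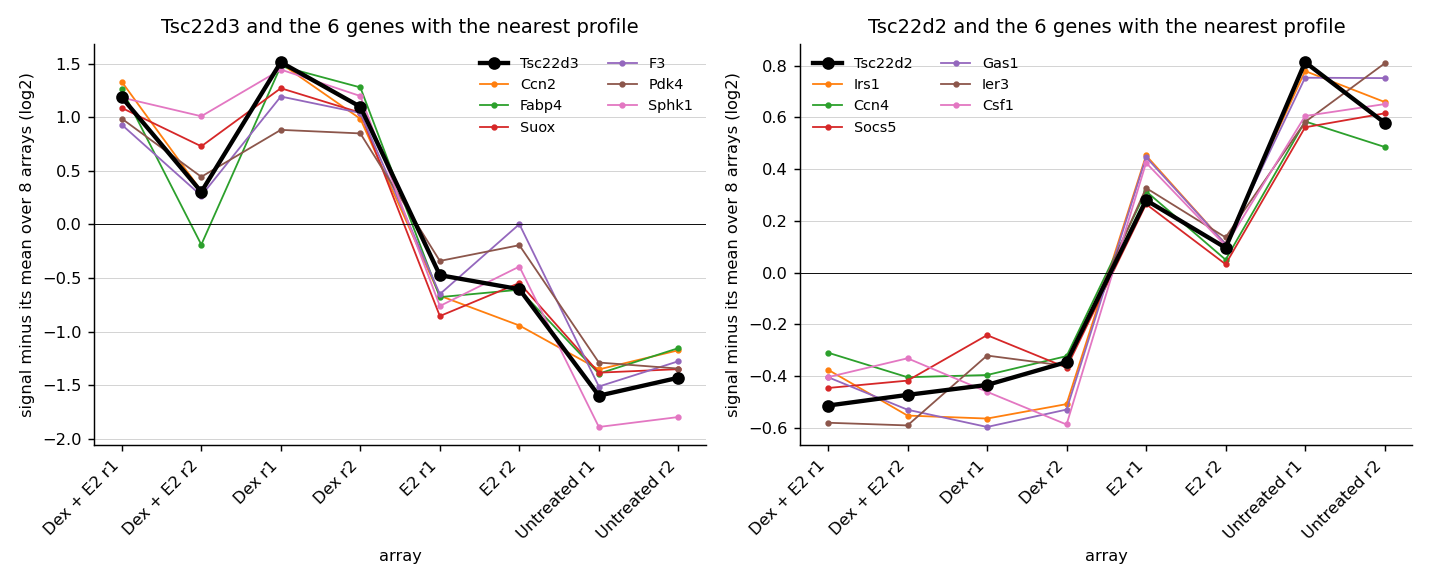
Signal minus its own mean over the 8 arrays (log2, y axis) on each array (x axis, by group and replicate) for Tsc22d3 (left, black) and Tsc22d2 (right, black), each with the 6 genes of nearest profile. Tsc22d3 and its neighbours lie above 0 on the Dex arrays and at or below 0.003 on the E2 and untreated arrays, and Tsc22d2 and its neighbours lie below 0 on the 4 Dex-treated arrays.

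Genes around the family were counted from lists, each gene by its brightest probe set. Over all probe sets 0.924% were called with Dex, 0.0355% with E2 and 0.844% with Dex + E2. In limma, 2562 of the 45037 had an unadjusted p under 0.05 with Dex, 2439 with E2 and 3676 with Dex + E2. With only the brightest probe set of each of 18193 genes fitted, 267 were called with Dex, 19 with E2 and 265 with Dex + E2. Of the 15 early glucocorticoid targets listed, 13 rose with Dex and 0 fell, with a median of 1.62 log2 units against 0.0014 over all probe sets. Rgs2, which dampens G-protein signals, rose by 3.21 ± 0.22, Per1, a clock gene, by 2.66 ± 0.13, Dusp1, a MAP kinase phosphatase, by 2.54 ± 0.14 and Zfp36, an mRNA decay factor, by 2.06 ± 0.16, so the Tsc22d3 rise of 2.82 stood within the range of this list. With E2, 2 of the 15 rose, Per1 by 1.97 ± 0.13 and Errfi1, a brake on EGF receptor signalling, by 0.95 ± 0.11, and the median was 0.24. With both hormones 12 rose and the median was 1.30. The list was drawn up with the rise of several of these genes already known.

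Of 9 genes of the NRBP and WNK axis, 0 passed in limma with Dex, E2 or Dex + E2, with 0, 1 and 0 at an unadjusted p under 0.05 and medians of 0.04, 0.0046 and 0.03 log2 units. Of 15 listed binding partners of GILZ and Tsc22d4, 9 were measured here. With Dex, 3 rose, namely Sgk1, a serum- and glucocorticoid-regulated kinase, by 1.31 ± 0.14, the AP-1 gene Fos by 1.20 ± 0.21 and Cebpb, a transcription factor of fat cell differentiation, by 1.18 ± 0.12. With Dex + E2, Sgk1 and Cebpb rose and Jun, another AP-1 gene, fell by 0.94 ± 0.14, while 0 of 9 passed in limma with E2, 4 being at an unadjusted p under 0.05.

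Of 9 TGF-beta pathway genes 1 passed, the inhibitory Smad gene Smad7, which was 0.78 ± 0.09 lower with Dex and 0.60 ± 0.09 lower with Dex + E2 (limma, adjusted p = 0.00224 and 0.0143). With E2, 0 of the 9 passed in limma and 2 had an unadjusted p under 0.05. Of 9 transcription factors reported to act on Tsc22d3, 1 passed with Dex and with Dex + E2 and 0 with E2, where 2 had an unadjusted p under 0.05. It was Foxo3, a forkhead factor restrained by insulin signalling, which rose by 0.91 ± 0.11 with Dex (limma, adjusted p = 0.00179) and by 0.95 ± 0.11 with Dex + E2 (0.00143). The receptor genes Nr3c1 and Esr1, named after their values were seen, differed from untreated by -0.47 and 0.09 with Dex without passing. Over both states of E2, Nr3c1 passed as lower, at -0.46 ± 0.09 (limma, adjusted p = 0.0245). Whether their probe sets read the fusion transgenes was not tested.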

How the data were processed

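RNA from 8 samples, 2 in each of 4 groups, was hybridised to 1-colour arrays. The deposited values are log2 signals made by the authors with RMA in Affymetrix Expression Console, per the submitters' processing notes; no counts or detection calls were used here. After 64 control probe sets were left out, 45037 of 45101 were tested. Symbols came from the platform annotation, in which 34945 probe sets have 1 symbol, 932 several and 9160 none listed.

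In limma 3.58.1 (R 4.3.3), 1 mean per group was fitted over the 8 arrays, leaving 4 residual degrees of freedom and a prior of 6.29, and Benjamini-Hochberg adjustment ran over all probe sets at 0.05. The procedure was also run on simulated data, with an outcome not reported here. Those data had independent normal errors and so no deviation shared across an array. The family members, the gene lists and the rule for named genes (all 15 members, up to 4 genes of a list that passed and the 6 genes of nearest profile) were chosen with earlier results of these data known. A list gene was read by its brightest probe set; 6 listed binding partners are not analysed here. The small number of arrays limits precision: the median SE of a difference was 0.102 log2 units. In bulk RNA, fewer cells of a type and less RNA per cell cannot be told apart. Alternatives changed the prior, the probe sets or arrays used, the centring and the replicate block.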

Additional observations from a re-analysis of the deposited data

How the results depend on the processing

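The 2 brighter Tsc22d3 probe sets and 1430535_at of Tsc22d2 kept their direction and their calls against untreated cells, with Dex and with Dex + E2, under every alternative in which they were fitted, and no called value changed sign. Counts of called probe sets moved by over 1.5 times as follows. With 1 probe set per gene, or the average over each gene, the count was 2 of 4 genes with Dex and 2 with Dex + E2, where fewer values were tested, and 3 and 2 for the mean Dex effect. With a trended and robust prior it was 6 for E2 against Dex, and with only the 2 groups compared it was 1 for E2 and 0 for Dex + E2 against E2; the cause was not tested. Leaving out each array in turn gave 3 to 4 for Dex, 0 to 1 for E2, 3 to 4 for Dex + E2, 0 to 1 for Dex + E2 against Dex, 0 to 5 for Dex + E2 against E2, 0 to 5 for E2 against Dex, 0 to 2 for the interaction and 4 to 7 for the mean Dex effect. Same-numbered arrays of different groups had deviations correlating at 0.16 to 0.31 among untreated, Dex and E2. Between each of these and Dex + E2 the correlation was -0.25 to -0.11. Whether the numbers pair the samples was not settled, and the main fit used no pairing. With the replicate block the count was 4 for Dex, 4 for Dex + E2, 0 for Dex + E2 against E2, where 1425281_a_at (adjusted p = 0.0812) and 1430535_at (0.0566) were not called, and 2 for E2 against Dex, where 1430535_at (0.0699) was not. Over all probe sets the number called ranged from 170 to 532 for Dex (416 as reported), 3 to 46 for E2 (16), 169 to 1436 for Dex + E2 (380), 0 to 168 for Dex + E2 against Dex (3), 16 to 1974 for Dex + E2 against E2 (151), 72 to 404 for E2 against Dex (304), 0 to 29 for the interaction (1), 349 to 1666 for the mean Dex effect (618) and 3 to 76 for the mean E2 effect (24).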

Other observations

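By size alone, the interaction of Tsc22d3 probe set 1420772_a_at, -1.54, was the 4th lowest of the 45037. That of 1425281_a_at was the 9th lowest, although neither passed. Both depend on the Dex + E2 arrays, at -1.09 and -0.87 without replicate 2 and -1.98 and -1.68 without replicate 1. The one probe set that passed the interaction test belongs to Per1, at -2.21 ± 0.18 (limma, adjusted p = 0.00949). No probe set passed that test without untreated replicate 2, Dex replicate 1 or 2, or E2 replicate 1 or 2 (limma, 1411 to 3441 of all probe sets at an unadjusted p under 0.05).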
